A study of Mus musculus with 17 samples.

Results

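The cytosolic ribosomal protein genes encode the proteins of the large (Rpl) and small (Rps) subunit of the ribosome in the cytosol. Their transcripts were followed here in mouse hematopoietic stem cells (HSCs), the blood-forming cells at the top of the hematopoietic hierarchy. Members were all genes whose symbol begins with Rpl or Rps followed by a digit, together with Rplp0, Rplp1, Rplp2 and Rpsa where measured, without the ribosomal S6 kinases (Rps6k) and pseudogenes. A gene was represented by the probe set that names no other gene and had the highest mean over all arrays. This gave 50 members of 18193 genes, 26 of the large and 24 of the small subunit family, and all 50 passed the filter on low values. Rps19bp1 meets the rule by its symbol but encodes a protein that binds RPS19 and is not part of the ribosome. The rule did not use any measured difference between groups.

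RNA from sorted HSCs was measured on 17 Affymetrix arrays in 5 groups. The fetal liver group held 3 arrays of E15.5 HSCs, for which the labels give no genotype and no injection. The adult groups came from mice injected with pIpC, an RNA duplex that can induce interferon-responsive Cre alleles. Day 7 after pIpC had 3 wild type control and 3 C/EBPa KO arrays, and day 21 had 4 of each. The titles of the KO samples name C/EBPa, a transcription factor of the myeloid line, whereas their genotype field and the series' design text name a Pu.1 knock-in (PU.1ki/ki), so the labels conflict and KO here means the libraries titled KO. The sources used here do not give the Cre driver, the age of the adult mice or whether an array stands for 1 animal or a pool. The p-values therefore measure the spread between these samples, which may be technical. Sorting took lineage-negative cells with Sca-1, c-Kit and CD150 but without CD48, and with low Mac-1 in the fetal liver.

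Ribosomal proteins are made in near equal numbers for each ribosome and their mRNAs are among the most abundant in growing cells. In mammals these mRNAs begin with a run of pyrimidines, the TOP motif, through which mTORC1 controls their translation, so their protein output can change without a change in mRNA level. HSCs are known to translate at a low rate, and haploinsufficiency of ribosomal proteins such as RPS19 causes Diamond-Blackfan anemia in humans. Arrays measure mRNA only, and translation was not measured here.

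Promoter sequence is shown because it holds the TOP start, a feature that the choice of members did not use. RefSeq promoters of mouse build GRCm38.p6 were matched by gene for 44 of the 50 members, with 52 promoters in all. A line gives the 40 bases before and the 20 bases from the annotated start, read 5′ to 3′ in the direction of the gene. Capitals mark the longest run of at least 8 pyrimidines (C or T) in these 60 bases, or the first of equal length, and a sequence without capitals has none. The examples are genes with very bright probe sets, genes whose values follow, and paralogs known for expression in special tissues, and they were picked after values were seen.
Rpl41, chr10:128549149-128549208, minus strand: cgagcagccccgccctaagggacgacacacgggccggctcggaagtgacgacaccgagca
Rplp2, chr7:141447611-141447670, plus strand: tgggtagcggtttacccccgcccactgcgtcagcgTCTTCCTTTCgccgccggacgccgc
Rpl35, chr2:39005112-39005171, minus strand: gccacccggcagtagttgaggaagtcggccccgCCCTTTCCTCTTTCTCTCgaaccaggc
Rpl7a, chr2:26910767-26910826, plus strand: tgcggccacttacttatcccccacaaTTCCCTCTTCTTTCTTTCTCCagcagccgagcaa
Rpl22l1, chr3:28805468-28805527, plus strand: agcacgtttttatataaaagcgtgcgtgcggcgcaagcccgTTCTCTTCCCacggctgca
Rps19, chr7:24884552-24884611, plus strand: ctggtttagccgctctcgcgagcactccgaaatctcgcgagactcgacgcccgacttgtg
Rps27, chr3:90213629-90213688, minus strand: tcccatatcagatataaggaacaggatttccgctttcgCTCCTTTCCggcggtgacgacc
Rps27l, chr9:66946046-66946105, plus strand: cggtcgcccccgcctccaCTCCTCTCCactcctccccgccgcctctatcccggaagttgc
Rpl3l, chr17:24727786-24727845, plus strand: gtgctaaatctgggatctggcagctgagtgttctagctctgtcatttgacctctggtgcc
Rpl39l, chr16:10170188-10170247, plus strand: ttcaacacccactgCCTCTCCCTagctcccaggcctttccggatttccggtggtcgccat

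Rpl7a and Rpl35 had runs of 21 and 18 pyrimidines across the start, and Rpl22l1 and Rplp2 had runs of 10. Rps19 and Rpl41 had no run of this length in the promoters shown, although Rps19 has 3 promoters in the table. Rpl3l, a paralog of Rpl3 known from muscle, had none, and Rpl39l, a paralog of Rpl39 known from testis, had its run further upstream. Over all members, 20 of 52 promoters (38.5%) held a run of at least 8 pyrimidines within 20 bases either side of the start, against 5272 of 32851 RefSeq promoters (16.05%). The letters CGGAAG hold GGAA, the core that ETS factors such as GABP bind. They were found on either strand in 32 of 52 member promoters (61.5%) over the 300 bases of an entry, against 16.9% of all promoters. The letters TTGCGCAA, a palindrome that C/EBP factors bind, were in 0 of 52 member promoters and in 60 of all promoters (0.183%). CGGAAG and the pyrimidine run can overlap on the opposite strand, and a match is a description of letters and not a site. The motifs were chosen with the values known, and no test was made.

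Before any comparison, the labels were set against the arrays. Cebpa, the gene for C/EBPa, had a mean intensity of 198 ± 102 (SD, n = 3) on the control and of 27.9 ± 6.26 (SD, n = 3) on the KO arrays of day 7. On those of day 21 it had 260 ± 197 (SD, n = 4) and 30.4 ± 6.64 (SD, n = 4), so that all 7 arrays titled KO lay below all 7 control arrays. Fetal liver had 50.5 ± 26.9 (SD, n = 3). Spi1, the gene for PU.1, had group means between 295 and 382 with overlapping arrays. The sources used here do not say whether the Cebpa probe set lies in deleted sequence. The 8 HSC marker genes tested had array means of log2 8.83 to 9.91 over all groups, and Meis1 and Gata2 were called lower in fetal liver. On the fetal liver arrays 6 of 10 erythroid, 5 of 8 endothelial, 4 of 10 macrophage, 3 of 9 hepatocyte and 2 of 9 neutrophil markers were called higher than in adult control. The macrophage markers include Adgre1, which was at the floor on all adult arrays. It was tested only through the fetal liver arrays, so nothing is read from it. In bulk samples, fewer cells of a type and less RNA per cell cannot be told apart.

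Of the 50 members, 36 had a mean above log2 11, and these are called the bright members. They were 19 Rpl and 17 Rps genes, and all lay above the 99th percentile of the array's probe sets. Their brightest were Rpl41, which encodes the smallest ribosomal protein, at a mean of log2 14.16, and Rplp2, a protein of the stalk that recruits translation factors, at 14.15. Rpsa, a small subunit protein also known as the laminin receptor, followed at 14.01. Intensities of different probe sets are not calibrated against each other, so this order is one of probe sets and not of transcript amounts. On individual arrays Rpl41 reached an intensity of 19891, while the highest probe set of an array lay between 20060 and 28360. Rpl22l1, the least bright of the 36, ranged from 2327 to 5637.

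**Figure D1:**
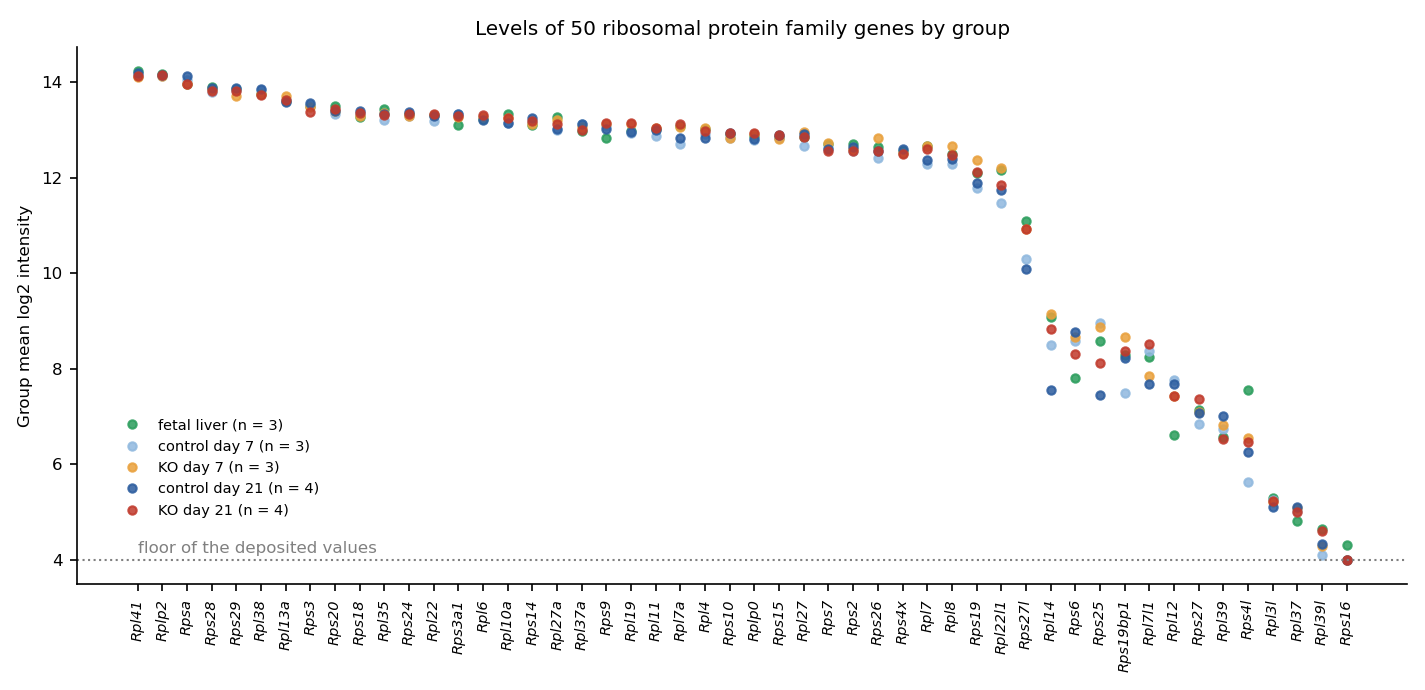
Group means of the log2 intensity (vertical axis) of the 50 genes (horizontal axis, in order of the mean over 17 arrays), with 1 point for each group of 3 or 4 arrays. The points of a bright gene nearly coincide, while those of genes under log2 11 are spread, and Rps16 lies on the floor of the deposited values at log2 4.

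The bright members varied little. For the 35 members above log2 12 the median SD over the 17 arrays, taken across all groups, was 0.0968 on the log2 scale, against 0.180 for all 125 genes tested with a mean above log2 12 and 0.586 for all 16784 genes tested. Rplp2 had the lowest SD, 0.0680, with intensities from 16487 to 19885. Its log2 difference between KO and control was 0.00 at both days. Rpl22l1 had the highest SD of the bright members, 0.367. The share of the summed intensity of all genes tested that came from the 50 members was between 5.79% and 6.40% on all arrays. The control probe sets for 18S rRNA lay between log2 13.36 and 14.38.

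The 14 members under log2 11 fell into separate kinds. Rpl14, Rps6, Rps25, Rpl12, Rps27, Rpl39, Rpl37 and Rps16 are core ribosomal proteins whose single-gene probe set was dim, while a probe set that the annotation assigns to that gene and at least 1 other had a mean between log2 13.27 and 13.99. Rps6, the target of the S6 kinases, had 8.44 on its single-gene and 13.75 on its shared probe set. Rps16 was at the floor, an intensity of 16, on 14 of 17 arrays and passed the filter only through fetal liver arrays 2 and 3 and KO day 21 array 1, so its single-gene value is a bound. The other 6 were Rps27l at 10.65, Rps19bp1 at 8.22, Rpl7l1 at 8.13, Rps4l at 6.47, Rpl3l at 5.22 and Rpl39l at 4.41. Of these Rps27l, a paralog of Rps27 induced by p53, Rpl7l1, a nucleolar relative of Rpl7, Rps4l, Rpl3l and Rpl39l are paralogs of core genes. The shared probe sets of the first 8 are assigned to 2 to 4 genes each, so how much of their signal comes from the member is not known.

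**Figure D2:**
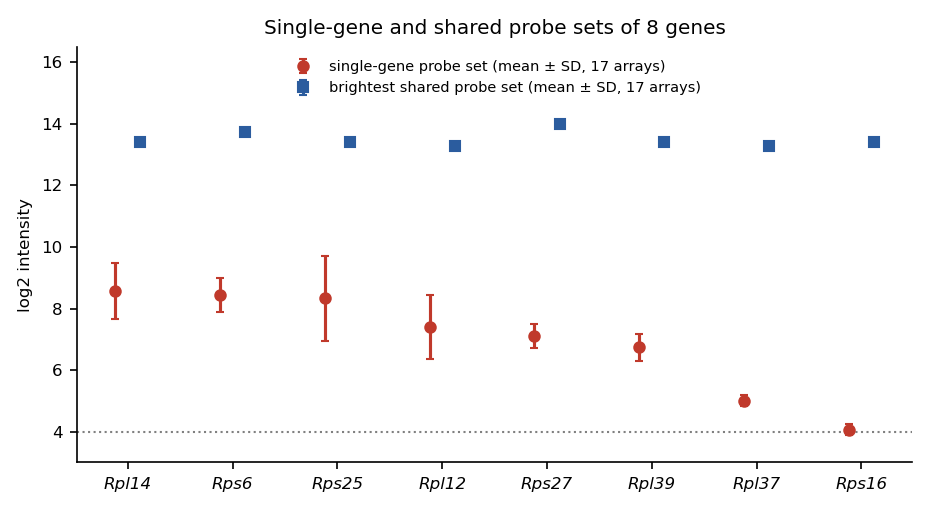
Mean log2 intensity over 17 arrays with SD (vertical axis) for the single-gene probe set and the brightest shared probe set of 8 genes. The shared probe sets lie between 13.27 and 13.99, while the single-gene probe sets lie between 4.06 and 8.57, and the dotted line is the floor.

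A further 28 ribosomal protein symbols were present only on probe sets shared with other genes, often pseudogenes, and are no members by the rule. They include Rpl3, which lies at the catalytic center, Rpl5, which binds Mdm2 together with Rpl11, Rpl10, Rplp1, Rpl36a and Rpl36al. All 28 had a shared probe set above log2 12. A reading of these probe sets as 1 gene was not possible, and they are described as a group where they bear on the members.

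KO and control HSCs at day 7 had nearly the same levels of most ribosomal protein transcripts. The median log2 difference (KO minus control) over the 50 members was 0.08, against 0.00 over all genes tested, with 35 members higher and 14 lower. With arrays centred on their own median, the members' median was 0.02, with 26 higher, and that of all genes was −0.06. Of the bright members 29 of 36 lay within 0.25 of no difference, and their range was −0.11 to 0.72. At the upper end stood Rpl22l1, Rps19, Rps26, Rpl8, Rpl7 and Rpl7a. All of these but Rpl7a, with a mean of log2 12.96, were among the least bright of the bright members. Rpl22l1 had a mean of 11.87, Rps19 12.05, Rpl8 12.46, Rpl7 12.51 and Rps26 12.60. Rps4x, at 12.54, differed by 0.01. The brightest, Rpl41 and Rplp2, differed by −0.01 and 0.00. Whether nearness to the top of the intensity range narrows differences was not tested. limma called 0 of the 50 members at an adjusted p under 0.05, and it called 0.0% of all genes tested. At an unadjusted p under 0.05 there were 6 members, all higher, against 6.72% of all genes, and an unmoderated linear model also called 0 members.

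Groups of 3 against 3 arrays did not overlap for 11 of the 50 members higher in KO, where 7.48% of all genes were higher without overlap. The same held for 0 of the 50 members lower, where 6.39% of all genes were. The 11 were Rpl22, Rpl19, Rpl7a, Rps26, Rpl7, Rpl8, Rps19, Rpl22l1, Rpl14, Rps4l and Rpl39l. Of these Rpl14, Rps4l and Rpl39l have means under log2 11. Rpl39l had intensities of 16.7 to 17.8 on control and 18.7 to 20.9 on KO arrays, near the floor of 16. The brightest shared probe set of Rpl14 differed by 0.04 at day 7. Control day 7 array 1 was the lowest control array for Rpl7a, Rpl8, Rpl19, Rpl22 and Rps4l. A low control array can widen a difference, but lack of overlap higher in KO depends on the highest control array. The median over the 50 members was log2 12.68 on control day 7 array 1, against 12.80 and 12.95 on the other control arrays. The 3 KO day 7 arrays had medians of 12.92, 12.92 and 12.95.

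Rps19, a small subunit protein needed for 18S rRNA maturation and the gene most often mutated in human Diamond-Blackfan anemia, had intensities of 4059, 3035 and 3564 on the control day 7 arrays. On the KO day 7 arrays it had 5815, 4667 and 5580. All KO arrays were higher than all control arrays, and the log2 difference was 0.60 (SE 0.18, limma adjusted p = 0.507). At day 21 the control arrays had 3911, 3910, 3451 and 3879, and the KO arrays had 3936, 3488, 5479 and 5292. Here 2 KO arrays lay at the level of the controls and 2 were high, so that the groups overlapped, with a log2 difference of 0.24 (SE 0.15, limma adjusted p = 0.647). Fetal liver had 4777, 4123 and 4329, all above the adult control arrays, with a log2 difference of 0.27 from adult control (SE 0.15, limma adjusted p = 0.401).

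Rpl7, a protein of the large subunit, had intensities of 4791, 4776 and 5406 on the control day 7 arrays and of 6334, 6017 and 7096 on the KO day 7 arrays. The groups did not overlap, and the log2 difference was 0.38 (SE 0.11, limma adjusted p = 0.491). At day 21 control had 4925, 5139, 5563 and 5753, and KO had 5994, 5906, 6596 and 6351. Again all KO arrays were higher than all control arrays, with a log2 difference of 0.22 (SE 0.10, limma adjusted p = 0.476). Over the mean of both days the difference was 0.30 (SE 0.07, limma adjusted p = 0.167), the smallest adjusted p of a member in that comparison. Fetal liver had 6399, 6664 and 6476, above all 7 adult control arrays, with a log2 difference of 0.34 (SE 0.09, limma adjusted p = 0.0673). Rpl7 has 3 single-gene probe sets, and over the mean of both days they gave 0.30, 0.39 and 0.39. In fetal liver they gave 0.34, 0.36 and 0.52, of which the last had a limma adjusted p of 0.0160 over all probe sets. The 3 share transcripts of 1 gene and are no replicates of each other.

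**Figure D3:**
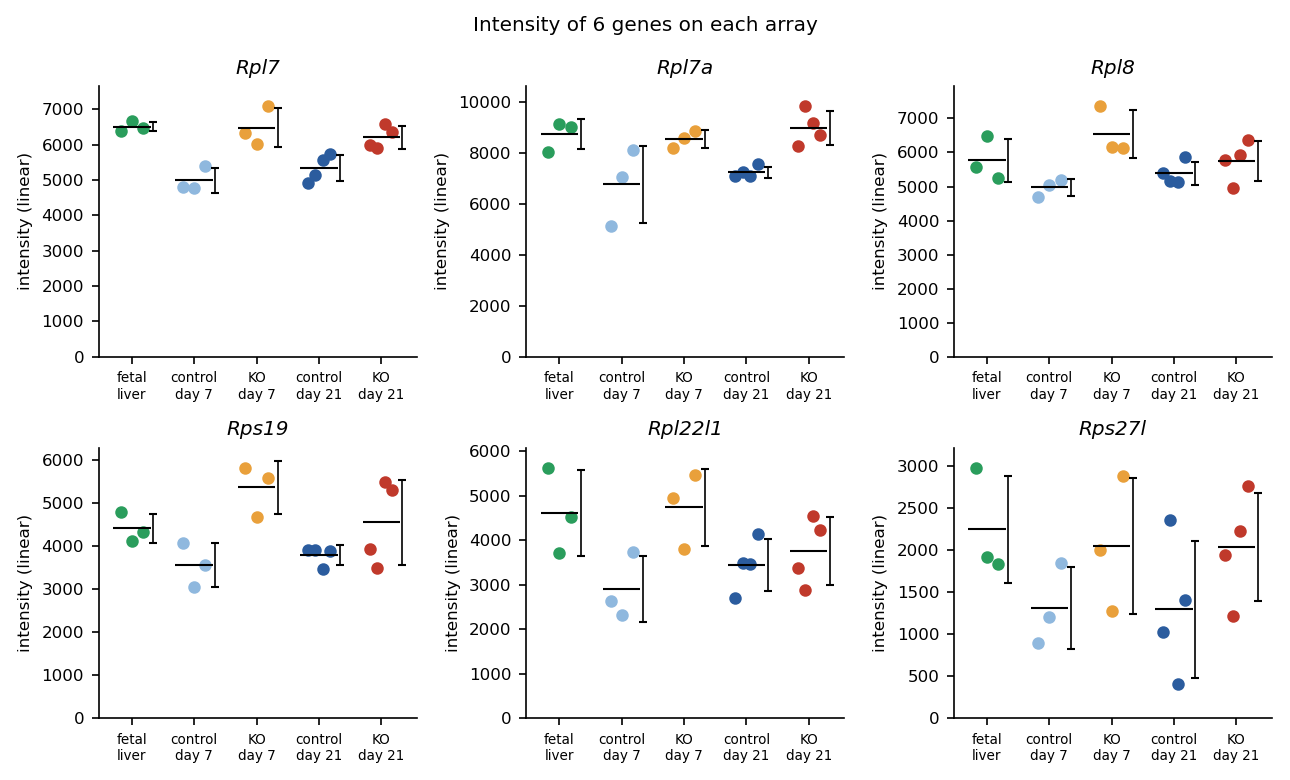
Intensity on a linear scale (vertical axis, from 0) of 6 genes on each of the 17 arrays, by group, with the group mean as a line and the SD as a bar to its right. Rpl7 is higher on all KO than on all control arrays at both days, while the groups of Rps27l overlap.

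Rpl7a had 5137, 7061 and 8116 in control and 8190, 8588 and 8870 in KO at day 7. The KO arrays lay close together just above the highest control array, and the log2 difference was 0.36 (SE 0.15, limma adjusted p = 0.685), or 0.17 without control day 7 array 1. At day 21 control had 7093, 7236, 7088 and 7559 and KO had 8287, 9839, 9171 and 8687. Both groups were tight there and did not overlap, with a log2 difference of 0.31 (SE 0.13, limma adjusted p = 0.447). Rpl8, a large subunit protein close to the catalytic center, had 4699, 5056 and 5177 in control and 7362, 6153 and 6137 in KO at day 7. This was a log2 difference of 0.39 (SE 0.13, limma adjusted p = 0.560), while at day 21 the groups overlapped with a difference of 0.09 (SE 0.11).

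Rpl22 and its paralog Rpl22l1 can take the same place in the large subunit, and in mouse the Rpl22 protein is known to repress Rpl22l1. Rpl22l1 had 2636, 2327 and 3741 in control and 4946, 3796 and 5479 in KO at day 7. The groups did not overlap, with a log2 difference of 0.72 (SE 0.24, limma adjusted p = 0.573), the highest of the bright members. At day 21 control had 2694, 3492, 3469 and 4132 and KO had 3375, 2880, 4554 and 4236, and the groups overlapped with a difference of 0.12 (SE 0.21). Rpl22 itself had means of 9388 ± 765 (SD, n = 3) on control and 10237 ± 507 (SD, n = 3) on KO arrays of day 7, a log2 difference of 0.13 (SE 0.12). On single arrays Rpl22 had 8506, 9804 and 9855 in control and 9965, 10822 and 9924 in KO. Both paralogs thus stood higher in KO at day 7 on the probe sets used, neither past the test. Rpl22 has 3 single-gene probe sets. On those not used, the day 7 means were log2 12.97 in control and 13.10 in KO, and 8.44 and 8.19.

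Rps26, a protein at the exit channel of the mRNA, had 6092, 4691 and 5726 in control and 7613, 6929 and 7404 in KO at day 7, a log2 difference of 0.42 (SE 0.14, limma adjusted p = 0.579). At day 21 control had 5879, 5692, 6290 and 6377 and KO had 5479, 5146, 6882 and 6765. The day 21 groups overlapped, and the difference was −0.01 (SE 0.12). The change of the KO difference from day 7 to day 21 was −0.43 (SE 0.19, unadjusted p = 0.0403, limma adjusted p = 1.00). It was the 1 member (2.0% of the 50) with an unadjusted p under 0.05 for this interaction, against 4.52% of all genes. limma called 0 members and 0.0% of all genes for the interaction, and the unmoderated linear model called 0 members. The median interaction over the members was −0.05, with 17 higher and 33 lower. With arrays centred on their median it was −0.14, with 7 higher, and that of all genes was −0.09.

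At day 21 the levels of the bright members in KO were again near those in control. The median log2 difference over the members was 0.02 against 0.00 over all genes, with 28 members higher and 22 lower, and 35 of 36 bright members lay within 0.25 of no difference. The exception among the bright members was Rpl7a. The direction of the median depended on scaling: with arrays centred on their median it was −0.14, with 11 members higher, and that of all genes moved by a like amount to −0.16. It also turned with the log2 ratio of 3′ to 5′ control probe sets, a measure of RNA quality, as a covariate, to −0.0107 with 23 members higher and 0 at an unadjusted p under 0.05. That ratio was −0.03 ± 0.27 (SD, n = 4) on control and 0.26 ± 0.05 (SD, n = 4) on KO arrays of day 21. limma called 0 members, against 0.0179% of all genes, and the unmoderated linear model called 0. At an unadjusted p under 0.05 there were 3 members (6.0% of the 50), Rpl14, Rpl7a and Rpl7, all higher, against 10.1% of all genes. Groups did not overlap for 4 of the 50 members higher in KO, Rpl19, Rpl7a, Rplp0 and Rpl7, where 3.14% of all genes were. For 1 of the 50, Rpsa, KO was lower without overlap, where 2.35% of all genes were.

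Rpl19 had 7988, 7822, 8117 and 7955 in control and 9031, 9137, 9024 and 8866 in KO at day 21. Arrays of a group agreed closely, and the log2 difference was 0.18 (SE 0.09, limma adjusted p = 0.527). At day 7 its difference was also 0.18 (SE 0.10). Rpsa had means of 17849 ± 471 (SD, n = 4) on control and 15860 ± 518 (SD, n = 4) on KO arrays of day 21, a log2 difference of −0.17 (SE 0.08, limma adjusted p = 0.511). It was the 1 member with an unadjusted p under 0.05 in the lower direction over the mean of both days, at −0.13 (SE 0.06, unadjusted p = 0.0482, limma adjusted p = 0.423). Rplp0, the stalk base, differed by 0.12 at both days, with an SE of 0.11 at day 7 and 0.09 at day 21. Rps3, a protein of the mRNA entry channel, differed by −0.18 at day 21 (SE 0.09, limma adjusted p = 0.552). Rpl11, which with Rpl5 binds Mdm2, had a difference of 0.17 (SE 0.11) at day 7, against 0.04 (SE 0.09) at day 21.

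Over the mean of both days limma called 0 of the 50 members, against 0.0715% of all genes. There were 9 members with an unadjusted p under 0.05, 8 higher and 1 lower, against 11.7% of all genes, and the unmoderated linear model called 0. The median difference was 0.06 against 0.01 over all genes, and −0.0517 against −0.11 with arrays centred on their median. Markers of other cell types are given beside these comparisons. The mean of 10 erythroid markers ranged over log2 6.71 to 6.98 on control and 7.48 to 8.39 on KO arrays at day 7, with 9 of 10 higher, and over 6.81 to 7.82 and 7.06 to 8.79 at day 21. The mean of 8 megakaryocyte markers ranged over 6.66 to 7.33 on control and 7.16 to 8.44 on KO arrays at day 7, with 7 of 8 higher, and over 6.82 to 7.99 and 8.33 to 9.16 at day 21, with 6 of 8 higher. The mean of 9 neutrophil markers ranged over 6.52 to 7.77 on control and 6.04 to 6.84 on KO arrays at day 7, and Ctsg was at the floor on all arrays of both. At day 21 it ranged over 5.77 to 8.14 on control and 5.35 to 5.69 on KO arrays. The mean of 6 markers listed for the cells that the sort excludes ranged over 5.44 to 5.64 on control and 5.92 to 6.28 on KO arrays at day 7, with 5 of 6 higher. At day 21 it ranged over 5.63 to 6.51 and 5.78 to 6.51, with 2 of 6 higher. Cd3e and Itgam were at the floor on all control day 7 arrays and could not come out lower in KO. Nothing is read from these genes at day 7, and their floor values also lower the control mean. Cd48 had the largest difference of the 6 at day 7, 2.78 on the log2 scale (SE 1.04, limma adjusted p = 0.645), and Ptprc is in that list for its B220 isoform although HSCs also express the gene. Of 8 HSC markers 3 were higher in KO at day 7 and 0 at day 21, where their array means ranged over 9.49 to 9.91 on control and 9.10 to 9.61 on KO arrays. None of these markers was called at either single day, 1 megakaryocyte marker was called higher over the mean of both days, and their part in the differences of the members was not tested.

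**Figure D4:**
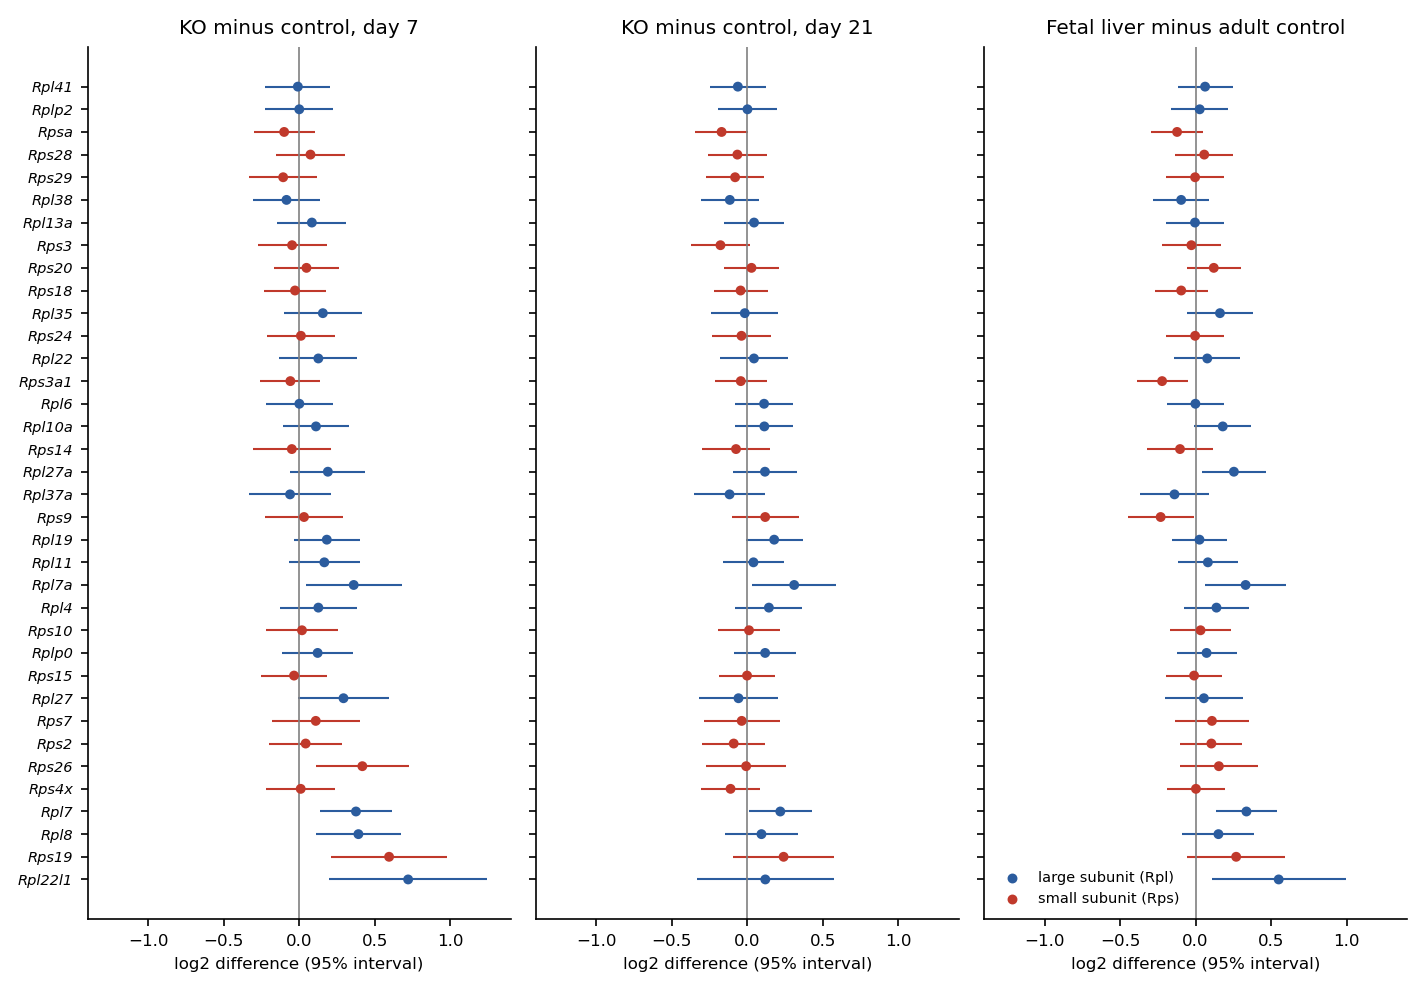
Log2 differences (horizontal axis) with 95% intervals of the 36 bright members (vertical axis, in order of mean intensity) for KO minus control at day 7 and day 21 and for fetal liver minus adult control. Blue marks large and red small subunit genes, and the points lie between −0.23 and 0.72, with the widest intervals for Rpl22l1.

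Fetal liver HSCs also had levels of most bright members near those of adult control HSCs. The median log2 difference (fetal liver minus the mean of both adult control groups) over the members was 0.08 against 0.02 over all genes, with 33 members higher and 17 lower. limma called 0 of the 50 members and 613 genes, 3.65% of all tested. At that share few of 50 members would be called, so the 0 is not read as a trait of the members. At an unadjusted p under 0.05 there were 9 members, 6 higher and 3 lower, against 16.8% of all genes. The 6 include Rps16, which is at the floor on all adult control arrays and was tested through the fetal liver arrays where it is higher, so nothing is read from it. The unmoderated linear model called 480 of 16784 genes, with 2 members among them, Rpl7 higher (adjusted p = 0.0133) and Rps3a1 lower (adjusted p = 0.00186). Over the alternatives the adjusted p of Rpl7 ranged from 0.00770 to 0.294 and that of Rps3a1 from 0.00186 to 0.498. Of the bright members 31 of 36 lay within 0.25 of no difference. This comparison shares its control arrays with the KO comparisons.

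Groups did not overlap for 4 of the 50 members higher in fetal liver than on all 7 adult control arrays, Rpl10a, Rpl27a, Rpl7 and Rps19. Of all genes 3.37% were higher in this way. For 2 of the 50 members, Rpsa and Rps3a1, all fetal liver arrays were lower, where 2.68% of all genes were. Rps3a1, a small subunit protein, had 8843, 8596 and 9079 in fetal liver. Its lowest adult control array was at 9914, and the log2 difference was −0.22 (SE 0.08, limma adjusted p = 0.150). Rpl27a had means of 9853 ± 520 (SD, n = 3) in fetal liver, 8251 ± 555 (SD, n = 3) in control at day 7 and 8288 ± 611 (SD, n = 4) in control at day 21, a log2 difference of 0.25 (SE 0.10, limma adjusted p = 0.189). Rpl22l1 had 5637, 3714 and 4521 in fetal liver, of which 1 array overlapped the adult controls, with a log2 difference of 0.55 (SE 0.21, limma adjusted p = 0.177). Rpl10a, a protein of the L1 stalk, differed by 0.18 (SE 0.09) and Rps9 by −0.23 (SE 0.10, limma adjusted p = 0.262).

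Markers of other cells also differed in this comparison. The mean of 8 endothelial markers ranged over log2 7.52 to 10.28 on fetal liver arrays against 5.85 to 6.59 on adult control arrays, and all 8 were higher. The mean of 10 macrophage markers ranged over 6.81 to 7.72 against 4.58 to 4.99. It includes Adgre1, which was at the floor on all adult arrays and could only come out higher in fetal liver. The mean of 9 hepatocyte markers ranged over 6.11 to 9.28 against 5.49 to 6.51. The mean of 10 erythroid markers ranged over 8.99 to 9.36 against 6.71 to 7.82. The mean of 9 neutrophil markers ranged over 8.30 to 10.75 against 5.77 to 8.14. The mean of 8 megakaryocyte markers ranged over 5.82 to 6.69 against 6.66 to 7.99, with 2 of 8 higher and 1, Itgb3, called lower. Their part in the values of the members was not tested.

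The dim members had wide errors. Rps4l, a paralog of the X-linked Rps4x, had 37.8, 436 and 406 in fetal liver, 32.1, 80.2 and 46.8 in control at day 7 and 39.2, 152, 114 and 50.3 in control at day 21. Fetal liver array 1 lay at the level of the adult arrays and the other 2 above all of them, with a log2 difference of 1.62 (SE 0.65, limma adjusted p = 0.210). Without fetal liver array 1 the difference was 2.78 and Rps4l was called (limma adjusted p = 0.00268), in a fit where 629 of 16784 genes were called. Over all alternatives the adjusted p of Rps4l ranged from 0.00268 to 0.577. Rps4x, the core gene, differed by 0.00 (SE 0.09). Rpl14 had 338, 294, 62.9 and 197 in control and 386, 311, 603 and 589 in KO at day 21. Control array 3 was low and the groups overlapped, with a log2 difference of 1.28 (SE 0.52, limma adjusted p = 0.435), while the brightest shared probe set of Rpl14 differed by 0.00.

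Rps27l had 893, 1209 and 1849 in control and 2004, 1274 and 2888 in KO at day 7. At day 21 control had 1033, 2357, 410 and 1404 and KO had 1947, 1221, 2230 and 2764. The groups overlapped at both days, with log2 differences of 0.63 (SE 0.54) and 0.85 (SE 0.46, limma adjusted p = 0.588). In fetal liver it had 2986, 1925 and 1836, a difference of 0.91 (SE 0.45, limma adjusted p = 0.336). Rps6 differed by −0.87 in fetal liver (SE 0.34, limma adjusted p = 0.205) on its dim probe set and by −0.01 on its brightest shared one. Rps25, the member with the largest SD, 1.39, was at the floor on control day 21 array 3 and between 89.7 and 797 on the other arrays. Rps19bp1 ranged from 44.4 to 946 and Rpl7l1 from 88.6 to 811, with overlapping groups in all comparisons. Rpl3l, Rpl37 and Rpl39l lay between an intensity of 16 and 51.3 on all arrays.

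Probe sets of 1 gene could differ. Rps24 has 6 single-gene probe sets, and the one used here, the brightest, differed by 0.00 between fetal liver and adult control (SE 0.09). A dim one, which the choice by highest mean did not use, differed by −2.30 (SE 0.39, limma adjusted p = 0.00569 over all probe sets). In this comparison 3.07% of all probe sets were called. The dim one had a mean of log2 4.83 in fetal liver, near the floor of 4. In control it had 6.95 at day 7 and 7.29 at day 21, so the floor limits the size of this difference. The other 4 probe sets of Rps24 differed by −0.03 to 0.07. The sources used here do not say which transcript the dim probe set reads. Rpl13a has 4 single-gene probe sets. The brightest, used here, had group means of log2 13.63 and 13.72 on control and KO arrays of day 7. At day 21 they were 13.58 and 13.62, and in fetal liver 13.60. On its dimmest probe set these means were 10.08 and 10.66, 10.23 and 10.64, and 11.01. The SD over the 17 arrays was 0.46 on this dimmest probe set and 0.08 on the brightest. At day 21 the remaining ones had 11.35 and 11.88, and 11.50 and 11.52. For this gene, nearness of the means to control depended on the probe set. Whether the probe sets differed beyond their spread was not tested.

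Between control groups at the 2 days after pIpC no member passed the test. The median log2 difference (day 21 minus day 7) was 0.07 against 0.00 over all genes, with 36 members higher and 13 lower. With arrays centred on their median it was 0.23, with 46 members higher, and that of all genes was 0.16. limma called 0 members, against 0.0298% of all genes, the unmoderated linear model called 0, and 0 members had an unadjusted p under 0.05, against 8.06% of all genes. Groups did not overlap for 1 of the 50 members higher at day 21, Rps18, where 2.75% of all genes were, and for 1 lower, Rpl3l, where 3.38% were. Rpl22l1 differed by 0.26 (SE 0.23), Rpl27 by 0.24 (SE 0.13) and Rpl11 by 0.12 (SE 0.10).

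Probe sets shared between genes, which the rule leaves out, are given beside the members. The brightest shared probe set was taken for each ribosomal protein symbol that had one above log2 12, members and non-members, which gave 39 probe sets. limma called 0 of these in any of the 6 comparisons, with a lowest adjusted p over all probe sets of 0.144. Of all 40023 probe sets in that fit, 0.0025% were called at day 7, 0.03% at day 21, 0.0275% over the mean of both days, 3.07% in fetal liver, 0.05% between the control days and 0.0025% in the interaction of KO and day. Their median log2 differences were 0.04 at day 7, 0.00 at day 21 and 0.04 in fetal liver. At day 7 they ranged from −0.15 for Rpl23 to 0.47 for Rps7, and in fetal liver from −0.25 for Rplp1, a stalk protein, to 0.26 for Rpl24. Fau, whose product is a small subunit protein fused to a ubiquitin-like domain, had differences of 0.30 (SE 0.19) at day 7, 0.13 (SE 0.16) at day 21 and 0.10 (SE 0.16) in fetal liver.

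Large and small subunit genes were set side by side, a view chosen after values were seen and given without a test. The difference between the medians of the bright Rpl and the bright Rps genes on an array was 0.06 ± 0.05 (SD, n = 3) in fetal liver, −0.15 ± 0.12 (SD, n = 3) on control day 7 and −0.01 ± 0.09 (SD, n = 3) on KO day 7 arrays. It was −0.18 ± 0.07 (SD, n = 4) on control day 21 and −0.07 ± 0.14 (SD, n = 4) on KO day 21 arrays. The fetal liver arrays, from 0.00 to 0.09, lay above all adult control arrays, from −0.28 to −0.04. KO and control overlapped at both days with this summary, and the ranges depended on it. With the mean in place of the median, day 21 control arrays ranged from −0.08 to −0.02 and KO arrays from 0.03 to 0.08, without overlap. The day 21 groups did not overlap either once shared probe sets were included, with ranges of −0.18 to −0.14 and −0.12 to 0.00 for the median and of −0.06 to −0.02 and −0.01 to 0.05 for the mean. At day 7 KO and control overlapped with all 4 summaries. The fetal liver difference from adult control was 0.22 with the median, 0.12 with the mean, 0.12 with the median and shared probe sets included, and 0.0646 with the mean and shared probe sets included. Fetal liver lay above all adult control arrays with the mean of the members, but overlapped them in both summaries with shared probe sets.

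**Figure D5:**
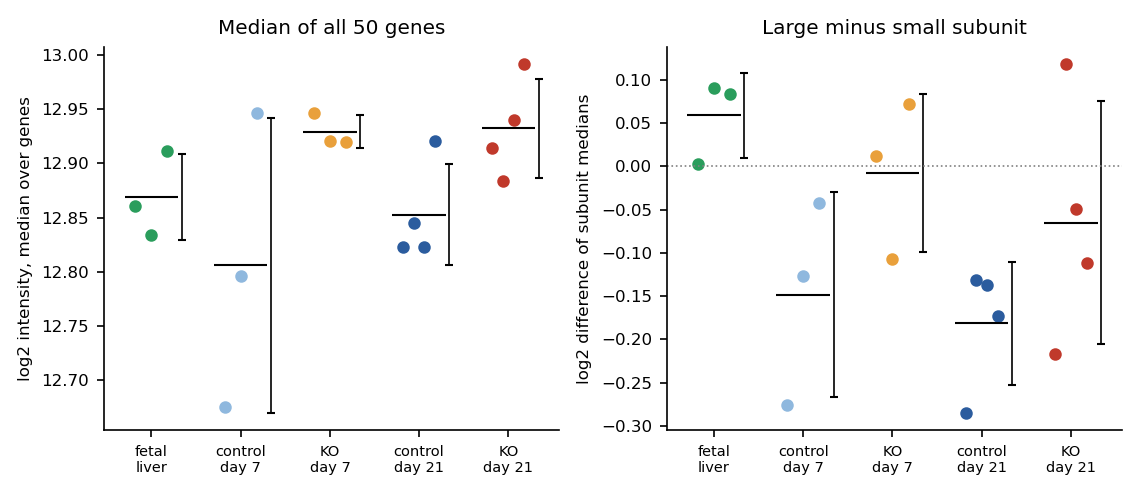
Left, the median log2 intensity of the 50 genes on each of the 17 arrays by group, and right, the log2 difference between the medians of bright large and small subunit genes, both with the group mean as a line and the SD as a bar. Left, control day 7 array 1 is the lowest at 12.68, and right, fetal liver lies above the adult control arrays, which it does not with shared probe sets included.

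Genes that act with the ribosomal proteins are given from lists chosen for this description. Of 20 other mRNAs known to carry a TOP motif, such as those of elongation and initiation factors, 19 were tested and 0 were called in any of the 6 comparisons, by limma. Their median log2 differences were 0.14 at day 7, 0.05 at day 21 and 0.23 in fetal liver. Eif3h and Eif3k, subunits of the initiation factor eIF3, had an unadjusted p under 0.05 in each. Of all genes tested, 6.72%, 10.1% and 16.8% had such a p in these comparisons. Both are named out of the 19 for this p and do not stand for the list or for eIF3. Eif3h had differences of 0.59 (SE 0.14, adjusted p = 0.390), 0.39 (SE 0.12, adjusted p = 0.309) and 0.46 (SE 0.12, adjusted p = 0.0554), and Eif3k had 0.69 (SE 0.22, adjusted p = 0.525), 0.67 (SE 0.19, adjusted p = 0.260) and 0.60 (SE 0.19, adjusted p = 0.1002). Eef2, which moves the ribosome along the mRNA, differed by −0.25 in fetal liver (SE 0.09, adjusted p = 0.157). Of 14 genes of mTORC1 and of TOP mRNA control 13 were tested and 0 called, with medians of 0.26, 0.50 and 0.16. Pdcd4, an inhibitor of initiation degraded after phosphorylation by S6 kinase, differed by 0.50 at day 21 (SE 0.13, adjusted p = 0.233).

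Of 6 genes of the axis from ribosomal proteins over Mdm2 to p53, 5 were tested. Cdkn1a, the p53 target that encodes the cell cycle inhibitor p21, was called lower in fetal liver, where the log2 difference was −3.43 (SE 0.29, limma adjusted p = 1.27e-05). It differed by −1.87 at day 7 (SE 0.34, limma adjusted p = 0.268) and by −0.09 at day 21. Mdm2 differed by −1.94 in fetal liver (SE 0.52, limma adjusted p = 0.0580). The other genes of this list were not called in any comparison, and Rps27l, the p53-induced member, had differences of the opposite sign in fetal liver, as given above.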

How the data were processed

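Groups came from the sample titles. The authors deposited linear intensities for 45101 probe sets on each array. RMA is the only tool given, per the submitters' processing notes, and the sources used here do not give scaling, background correction or the order of steps. No value was below 16, and this floor held 20.4% to 25.2% of an array's probe sets. Array medians were 39.4 to 53.1, and no 2 arrays correlated above 0.952. Arrays give no read depth, so their number limits the precision.

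log2 was taken with no pseudocount, because the deposited values were linear. Probe sets were named by the platform annotation. Of these 34945 had 1 gene, 932 several and 9160 besides controls none. The exclusion of pseudogenes ending in "ps" and a number was applied after the leading Rpl or Rps. A literal reading would remove all numbered Rps genes; it was tried first and its values were seen. Of 18193 genes, 1409 at the floor on all arrays were left out. limma 3.58.1 in R 4.3.3 fitted 5 group means (residual df 12, prior df 1.5), with Benjamini-Hochberg adjustment over 16784 genes and a threshold of 0.05, and 95% intervals. The code was tested on simulated data.

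Members and lists were chosen with earlier results of these data known. Named genes were a fixed set of stalk, paralog and disease genes, the 4 smallest p in each direction per comparison, the 3 highest and lowest means and the 3 largest SDs. Rps24, Rps18, Rpl10a and Rpl24 among others were named after their values were seen, as were the limits of log2 11 and 0.25, the promoter letters and the subunit view. Alternatives changed scaling, probe sets, filter, variance model, replicate block, RNA quality covariate and the arrays included.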

Additional observations from a re-analysis of the deposited data

Results flagged for a closer look

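In groups of 4 arrays, a highest or lowest array far from the other 3 was looked for in 74 groups of values, and 3 were found; chance alone gives about 1 in 20. Rps19 had log2 11.75 on control day 21 array 3, against 11.92 to 11.93 on the other 3. Rps9 had 12.85 on the same array, against 13.06 to 13.10. This array also had the largest share of probe sets at the floor, 25.2%, and the lowest log2 ratio of 3′ to 5′ control probe sets, −0.40; their part in both values was not tested. Rps16 had 4.04 on KO day 21 array 1, against the floor of 4 on the other 3.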

How the results depend on the processing

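Centring each array on its median shifted the median of all genes by −0.06 at day 7, −0.16 at day 21, −0.11 over both days, 0.16 between the control days and −0.09 for the interaction. With it the median difference of the members was −0.14 at day 21, −0.0517 over both days, 0.23 between the control days and −0.14 for the interaction. Without probe sets of the suffix _x_at or _s_at, 45 members had a median of 0.0933 at day 21. Members called in fetal liver numbered 2 with no filter on low values, with trend and robust, and with the unmoderated model (Rpl7 and Rps3a1), 2 with the mean of all single-gene probe sets (Rpl7 and Rps24), and 1 without those suffixes (Rps24). In the same order 571 of 18193, 615, 480 and 880 of 16784 and 584 of 16478 genes were called. The calls of members are thus not set apart from those of all genes. Over both days the mean of probe sets called 29 of 16784 genes, with 1 member, Rpl7 (adjusted p = 0.0396, against a range of 0.0396 to 0.418 over its alternatives). The cause was not tested.

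Leaving out each array in turn gave 0 to 1 members called in fetal liver, against 414 to 690 of all 16784 genes. Elsewhere it gave 0 members, against 0 to 43 genes. Medians ranged from 0.05 to 0.13 at day 7, −0.00 to 0.04 at day 21, 0.03 to 0.07 over both days, 0.03 to 0.10 in fetal liver, 0.03 to 0.09 between the control days and −0.07 to −0.02 for the interaction. The large minus small subunit difference ranged from 0.08 to 0.19 at day 7, 0.06 to 0.17 at day 21 and 0.19 to 0.25 in fetal liver. In fetal liver it was 0.12 with the mean, 0.12 with shared probe sets and 0.0646 with both, alternatives added after seeing the data.

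Deviations of samples with the same replicate number had a median correlation of 0.00 over 31 pairs of all groups, against 0.00 over 84 others. Control and KO day 7 arrays of equal number had 0.0784, 0.0295 and 0.0780, and those of unequal number −0.0856 to 0.0322. At day 21 those of equal number had 0.0176, −0.025, 0.0143 and 0.0214. Whether day 7 arrays were paired was not tested. With the replicate block 0 members were called in each comparison, and the medians were 0.08 at day 7, 0.02 at day 21 and 0.08 in fetal liver. Of 6006 alternative values of 36 named genes, 5839 stayed uncalled and moved by less than the SE of the main fit. Of the others 158 moved by more and 9 newly passed. Direction was not checked for the 5839. Many alternatives, such as another variance model or leaving out an array of another group, cannot move a difference, so the count is no measure of stability. Intensities of the brightest probe sets near the top of the range, the floor for dim probe sets and 3 or 4 arrays a group limit what can be seen.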
